A study of Mus musculus with 6 samples.

Results

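The translation initiation and elongation factors are the proteins that bring ribosomes onto mRNA and move them along it. The members described here are the 62 known genes, of 15803 genes in the table, whose symbol begins with Eif1 to Eif6 or with Eef1 or Eef2, without the Eif2ak kinases, which phosphorylate eIF2 and are not factors themselves. The rule for membership reads gene names and no measured value. RNA was taken from growth plate cartilage of mouse embryos at E18.5. The label WT stands for Hnrnpk fl/fl, with 3 libraries. The label CKO, also with 3, stands for Col2a1-Cre;Hnrnpk fl/fl, where Cre is driven by the Col2a1 promoter of chondrocytes and removes exons 4 to 7 of Hnrnpk, a gene for an RNA-binding protein. Both groups carried the floxed allele, and WT carried no Cre. The embryos were littermates of both sexes, and nothing in the labels says whether a library came from 1 embryo or from a pool.

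Initiation begins when eIF2 carries the initiator tRNA to the small ribosomal subunit, where eIF1, eIF1A and eIF3 are already bound. The cap-binding complex eIF4F recruits the mRNA, the scanning subunit selects a start codon, and eIF5 and eIF5B bring about the joining of the large subunit. The exchange factor eIF2B then reloads eIF2 with GTP, a step that the kinases of eIF2 restrain. During elongation eEF1A delivers aminoacyl-tRNA, the eEF1B subunits recharge eEF1A with GTP, eEF2 moves the ribosome by a codon, and eIF5A relieves stalling. Growth plate chondrocytes secrete large amounts of collagen and proteoglycan and depend on this machinery.

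Levels are given in CPM, the reads of a gene scaled so that each library sums to 1000000. A level compared between genes is divided by the kilobases of exon of the gene. The libraries held 1183743 to 1379674 reads in WT and 1153871 to 1454094 in CKO, so that 3 reads, the floor used here, correspond to 2.06 to 2.60 CPM. Differences are log2 fold changes of CKO minus WT on the log2(CPM + 1) scale, from a limma fit over all 12155 genes whose mean reached 1 CPM, and a gene is called when its Benjamini-Hochberg adjusted p is below 0.05. That scale understates the change of genes with low counts. Where nothing shows that libraries came from separate animals, p-values measure only the spread between libraries.

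Hnrnpk itself stood at 842, 955 and 944 CPM in the WT libraries and at 759, 950 and 780 CPM in the CKO libraries. The ranges overlapped (log2 fold change -0.14, SE 0.15, limma adjusted p = 0.622), and the gene level, which counts all exons together, did not tell the genotypes apart. WT and CKO are therefore the labels of the libraries throughout. Col2a1, which defines chondrocytes, was present in every library, with 1411 to 3944 CPM. Of the 8 chondrocyte markers, 6 were called lower, and their summed level was 23099 to 27635 CPM in WT and 5209 to 5357 CPM in CKO. The 5 osteoblast markers summed to 1444 to 4428 CPM in WT and 12098 to 13154 CPM in CKO, with Spp1 alone called higher. Without Spp1 the other 4 summed to 407 to 659 CPM in WT and to 984, 331 and 1109 CPM in CKO, so that CKO 2 lay below all WT libraries. The 6 macrophage and osteoclast markers summed to 99.3 to 112 CPM in WT and 179 to 193 CPM in CKO, with Cd68 alone called higher. The epithelial markers in the table summed to 21.1 to 42.0 CPM in WT and 65.7 to 118 CPM in CKO, with 1 called higher. Muscle markers summed to 46.5 to 205 and 108 to 264 CPM, erythroid markers to at most 28.9 CPM, and neuronal and endothelial markers to at most 3.38 CPM. Of these markers 7 of muscle, 2 erythroid, 1 neuronal and 0 endothelial reached the mean of 1 CPM and were tested. None of those tested was called. Pecam1 and Cdh5, which define endothelium, and Ptprc, of all blood leukocytes, had at most 1 read in each library. The part of these cell populations in the differences below was not tested, and in such bulk samples fewer cells of a type and less RNA per cell cannot be told apart. The library labelled CKO 2 stood by over 1 on the log2 scale above both other CKO libraries in 791 of the 12155 genes tested, and WT 3 above both other WT libraries in 732.

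Of the 62 factors, 60 were tested, and Eif4ebp3 and Eef1akmt3 stayed below the filter with 0 to 3 reads in each library. Only 3 factors were called. Eef1e1 and Eif2s1 were higher in CKO, 2 of 60 beside a background of 3.18% of all genes tested. Eef2 was lower, 1 of 60 beside a background of 2.6%. In either direction 5% of the tested factors were called, beside 5.78% of all genes tested, and the share of called factors was thus close to that of genes in general. None of the called factors changed by more than 1 on the log2 scale. An unadjusted p under 0.05 was reached by 15 factors (25%), 8 with higher and 7 with lower values, beside 21.3% of all genes tested. In 13 factors (21.7%) every CKO library lay above every WT library, beside 14.5% of all genes tested, and in 8 factors (13.3%) every CKO library lay below, beside 13.2%. The median log2 fold change of the tested factors was 0.043, beside 0.013 for all genes tested. Transcripts of other annotated genes share 20% or more of the longest transcript, at 98% identity, with 11 of the 62 factors. Reads of these factors could have been split or lost in counting. In 2 of them, Eef1akmt4 and Eif4ebp3, a gene on the same strand at the same place overlaps 30.7% and 67.3% of the exons. Together the factors took 2.16% to 2.41% of the reads in WT and 2.20% to 2.29% in CKO.

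**Figure D1:**
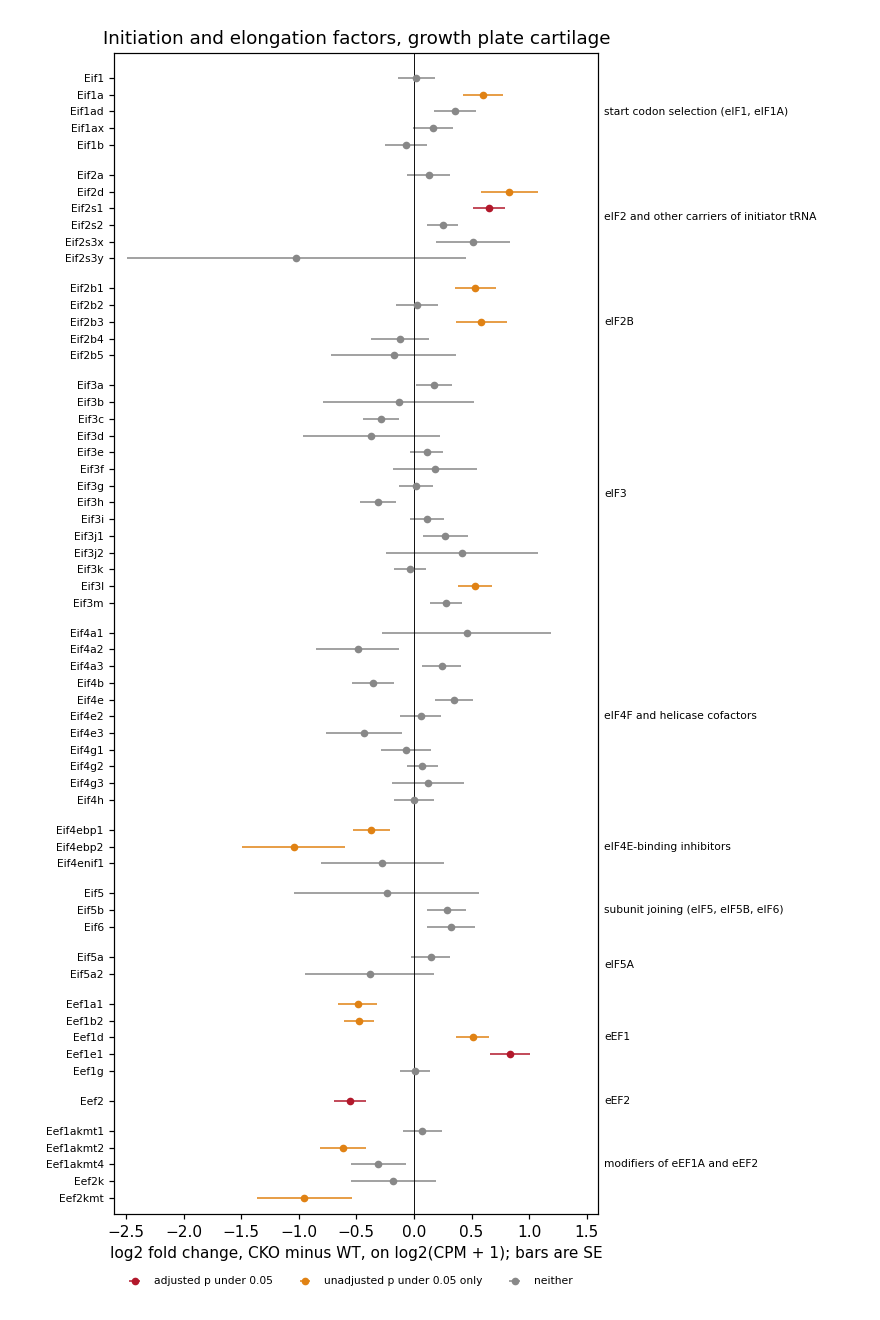
Log2 fold change (CKO minus WT, on log2(CPM + 1), horizontal axis) of the 60 tested factors, grouped by role, with bars of 1 SE from the limma fit of 3 against 3 libraries. The 3 called factors are red, the other 12 with an unadjusted p under 0.05 are orange, and members on either side of 0 stand within most roles.

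Translation of many factor and ribosomal protein mRNAs is regulated through a run of pyrimidines that begins with C at the transcription start, the 5′ terminal oligopyrimidine motif. Start windows of the called factors and of those that bear on the paralogs below are printed from RefSeq (GRCm38.p6), from 10 bases before the annotated start, with a pyrimidine run of at least 5 bases that begins with C within 5 bases of the start in capitals.
Eef1e1 (chr13:38659009-38659038, minus strand): gtcctagctgtgcaggccccgcctccctag
Eif2s1 (chr12:78862062-78862091, plus strand): ggttgggcgaagcgcacgctgaggagcttc
Eef2 (chr10:81176621-81176650, plus strand): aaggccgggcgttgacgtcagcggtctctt
Eef1b2 (chr1:63176821-63176850, plus strand): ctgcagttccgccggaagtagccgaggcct
Eef1a1 (chr9:78481705-78481734, minus strand): ctccgCCCTCTTCCCgagggtgggggagaa
Eif3l (chr15:79075213-79075242, plus strand): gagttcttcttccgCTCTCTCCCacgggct
Eif2s3x (chrX:94212632-94212661, minus strand): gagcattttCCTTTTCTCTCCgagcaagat
Eif2s3y (chrY:1010585-1010614, plus strand): ggccacagccaCTTCCTTCTTTCgtgagca

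By this rule none of the 3 called factors had a run at its start. Eef1a1, Eif3l and both gamma subunit genes of eIF2 had runs of 9 to 12 bases. The run depends on the annotated start, and its lack says only that none begins within 5 bases of it. Pyrimidine runs that begin with C farther from the start, as in the windows of Eef1e1 and Eef2, were not counted. Of the 47 factors with a RefSeq promoter, 11 (23.4%) had a run by this rule, beside 23.5% of the genes of the table and 48.3% of 60 genes of cytosolic ribosomal proteins. In the 300 bases from 250 before to 50 after the start, searched on both strands, GGGCGG (the GC box) occurred in 36 of the 47 factors (76.6%) and in 64.6% of the genes of the table. CCGGAAG, a core of ETS factor sites, occurred in 16 (34%) and in 17.8%, among them Eef1b2 and Eif3l. TGACGTCA, the cAMP response element, occurred in 1 factor, Eef2, where it lies just after the annotated start in the window printed above, and in 3.32% of the genes of the table. GCATGCGC, of NRF1 sites, occurred in 5 (10.6%), among them Eef2 and Eif2s1, and in 5.38%. CCAAT occurred in 15 (31.9%) and in 42.6%, and TGATGCAA, a composite of C/EBP and ATF sites, in 0 and in 0.759%. No promoter comparison was tested, and a match of letters is no evidence of binding.

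Among the elongation factors the largest difference was that of Eef1e1 (ENSMUSG00000001707, chr13:38644207-38659058, minus strand, GRCm38). Although named after eEF1, its product is known as AIMP3, a scaffold of the multi-tRNA synthetase complex. Eef1e1 measured 73.2, 74.3 and 72.7 CPM in WT and 117, 155 and 126 CPM in CKO. Every CKO library lay above every WT library, and the WT libraries lay within 2 CPM of each other. The mean rose from 73.4 ± 0.836 CPM (SD, n = 3) to 132 ± 19.6 CPM (SD, n = 3), a log2 fold change of 0.83 (SE 0.17, limma adjusted p = 0.0233), and the adjusted p ranged from 0.0169 to 0.0952 over the alternative settings.

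Eef2 (ENSMUSG00000034994, chr10:81176631-81182498, plus strand), the GTPase that translocates the ribosome, was the second most abundant factor per kilobase in WT after Eif1. It measured 3682, 3654 and 3109 CPM in WT and 2391, 2276 and 2418 CPM in CKO. The groups did not overlap. The mean fell from 3482 ± 323 CPM (SD, n = 3) to 2362 ± 75.2 CPM (SD, n = 3), a log2 fold change of -0.56 (SE 0.14, limma adjusted p = 0.0424, from 0.0185 to 0.173 over the alternatives). Without a filter on low values it was no longer called. Its kinase Eef2k, which inhibits it, stood at 5.07 to 8.45 CPM in WT and 5.05 to 7.57 CPM in CKO, with 7 to 11 reads a library.

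The subunits of eEF1 differed from each other. The mRNA for the GTPase eEF1A, Eef1a1, measured 942, 991 and 706 CPM in WT and 690, 559 and 618 CPM in CKO. The groups came close at 706 and 690 CPM, and the difference of -0.49 (SE 0.17) was not called (limma adjusted p = 0.124). Eef1a1 has 15 near-identical copies elsewhere in the genome, and 79.4% of its longest transcript lies in stretches shared at 98% identity or more. Its count is therefore uncertain, and its level cannot be set against that of other genes with confidence. Eef1a2, the paralog of muscle and neurons, is not analysed here.

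Eef1b2, an exchange subunit of eEF1B, has no copy of at least 90% identity over 300 bp, and shorter stretches shared at 98% identity cover 14.3% of its longest transcript. It measured 1400, 1459 and 1364 CPM in WT and 1056, 1013 and 972 CPM in CKO. No CKO library came within 300 CPM of a WT library. The difference of -0.47 (SE 0.13) fell just short of the threshold (limma adjusted p = 0.0611), and edgeR's quasi-likelihood test on recovered reads and the stricter filter called it. Eef1d, the other exchange subunit, measured 349, 362 and 418 CPM in WT and 510, 570 and 524 CPM in CKO. These values lay the other way, without overlap, and the difference of 0.51 (SE 0.14) was not called (limma adjusted p = 0.0685). Eef1g, the scaffold subunit and the highest of the group per kilobase, has 5 copies that share 72% of its longest transcript at 98% identity. It measured 2130, 2356 and 2081 CPM in WT and 2243, 2181 and 2171 CPM in CKO. Its difference was 0.01 (SE 0.13). The ratio of Eef1b2 to Eef1d, formed after the values were seen, was 4.02, 4.02 and 3.26 in WT and 2.07, 1.78 and 1.86 in CKO, and the ratio of Eef1b2 to Eef1g was 0.619 to 0.657 and 0.448 to 0.471. Neither ratio overlapped between the genotypes. The first could not, since Eef1b2 lay below and Eef1d above without overlap, and neither ratio is further support.

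**Figure D2:**
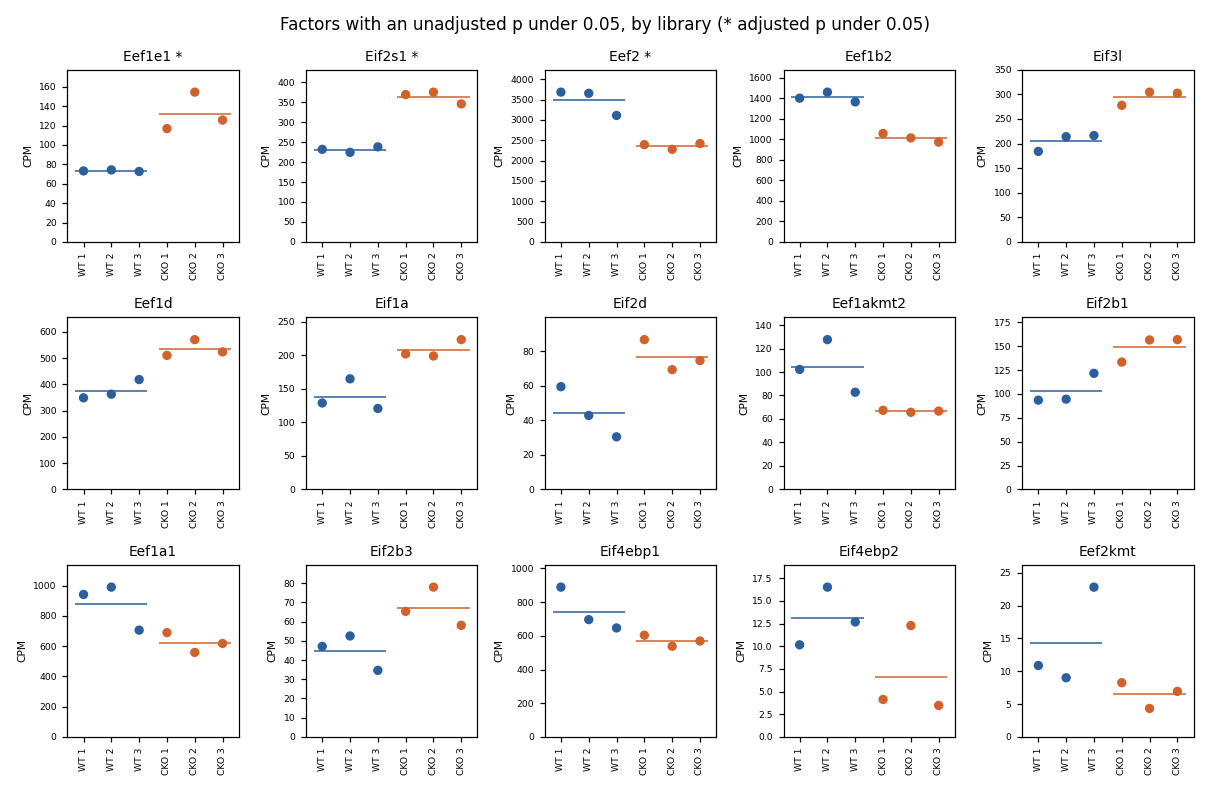
CPM (vertical axes, from 0) in each of the 6 libraries (horizontal axes) for the 15 factors with an unadjusted p under 0.05, ordered by p, with lines at the WT (blue) and CKO (orange) means. The genotypes do not overlap in 14 of the 15, and Eif4ebp2 is the exception. The 15 were chosen by p from these same values, so that this separation is no further support.

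The enzymes that modify elongation factors were low in most cases. Eef1akmt2, a lysine methyltransferase of eEF1A, measured 102, 128 and 82.8 CPM in WT and 67.4, 65.7 and 66.7 CPM in CKO. All CKO libraries lay below, with almost the same value, and the difference was -0.62 (SE 0.20, limma adjusted p = 0.0998). Eef2kmt, which methylates eEF2, had 15, 12 and 27 reads in WT and 12, 6 and 8 in CKO, with a difference of -0.95 (SE 0.41, limma adjusted p = 0.214). Its CPM did not overlap, and WT 3 alone stood far above the rest. Eef1akmt1, the highest of these enzymes per kilobase, measured 95.0, 80.3 and 83.6 CPM in WT and 97.7, 84.4 and 90.1 CPM in CKO, and the groups overlapped. Eef1akmt4 differed by -0.31 (SE 0.24) and Eef2k by -0.18 (SE 0.37), with overlap in both.

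Of the initiation factors, only Eif2s1 (ENSMUSG00000021116, chr12:78861819-78887010, plus strand) was called. It encodes eIF2α, the subunit whose phosphorylation lowers initiation in the integrated stress response. It measured 232, 224 and 238 CPM in WT and 369, 375 and 346 CPM in CKO. The groups lay more than 100 CPM apart, with little spread within each. The mean rose from 231 ± 6.93 CPM (SD, n = 3) to 363 ± 15.6 CPM (SD, n = 3), a log2 fold change of 0.65 (SE 0.14, limma adjusted p = 0.0250, from 0.0123 to 0.113 over the alternatives). The gene has 5 partial copies of at least 90% identity over 300 bp, and no part of its longest transcript is shared with them at 98%.

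Eif2s2, for eIF2β and the highest of the group per kilobase, measured 690, 748 and 784 CPM in WT and 842, 918 and 882 CPM in CKO. The groups did not overlap, and the difference of 0.25 (SE 0.13) was not called (limma adjusted p = 0.317). Eif2s2 shares 39% of its longest transcript with a copy at 98% identity. The ratio of Eif2s1 to Eif2s2, formed after the values were seen, was 0.300 to 0.336 in WT and 0.392 to 0.438 in CKO. Eif2d, which can deliver initiator tRNA without GTP, measured 59.4, 42.8 and 30.4 CPM in WT and 86.7, 69.3 and 74.5 CPM in CKO. Every CKO library lay above, and the difference was 0.83 (SE 0.25, limma adjusted p = 0.0857). Eif2a, a carrier unrelated to eIF2α despite its name, differed by 0.13 (SE 0.18). The 6 members of the group summed to 1165 to 1221 CPM in WT and 1479 to 1596 CPM in CKO.

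The gamma subunit of eIF2 is encoded on both sex chromosomes. Eif2s3x, on X, measured 117, 74.3 and 49.0 CPM in WT and 82.5, 155 and 97.9 CPM in CKO. The highest values were those of WT 1 and CKO 2. Eif2s3y, on Y, had 0, 55 and 66 reads in WT and 25, 0 and 17 in CKO, so that WT 1 and CKO 2 had none. The other Y-linked genes followed the same libraries. Ddx3y had 0, 74 and 88 reads in WT and 96, 0 and 90 in CKO, and Uty and Kdm5d had at most 1 read in WT 1 and none in CKO 2. The sexes of single libraries are not in the labels, and Xist is not analysed here. The sum of both gamma genes was 117, 116 and 105 CPM in WT and 99.7, 155 and 113 CPM in CKO, and the groups overlapped. In WT 2, WT 3, CKO 1 and CKO 3, Eif2s3y stood at 41.3 and 55.8 CPM in WT and at 17.2 and 14.7 CPM in CKO. Uty showed the same order, with 8.3 and 7.6 CPM in WT and 5.5 and 6.9 CPM in CKO, from 8 to 11 reads. Ddx3y and Kdm5d did not show it. Neither gene was called (Eif2s3x 0.51, SE 0.32, and Eif2s3y -1.02, SE 1.47), and the zero counts of WT 1 and CKO 2 enter the second value. Eif2s3x has 2 copies elsewhere, with 37% of its longest transcript shared at 98% identity, so that its count is uncertain.

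**Figure D3:**
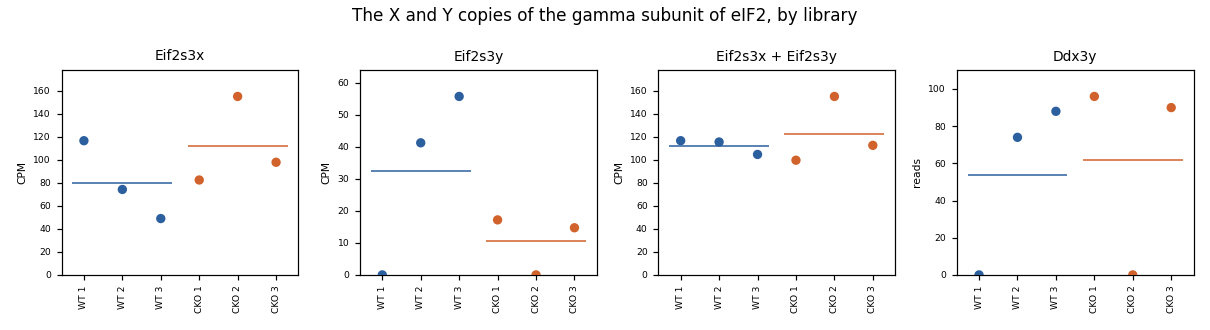
Level by library of Eif2s3x, Eif2s3y and their sum in CPM, and of the Y-linked gene Ddx3y in reads (vertical axes from 0), with lines at the WT (blue) and CKO (orange) means. WT 1 and CKO 2 have no reads of either Y-linked gene and the highest Eif2s3x of their genotype, and the sums lie between 99.7 and 155 CPM.

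eIF2B, the exchange factor of eIF2, has 5 subunits, and 0 were called by limma, edgeR or DESeq2. Of all genes, limma called 5.78%, edgeR 9.57% and DESeq2 7.69%. By limma 2 (40%) had an unadjusted p under 0.05, beside 21.3% of all genes tested. Eif2b1, for the alpha subunit and the highest per kilobase, measured 93.5, 94.6 and 122 CPM in WT and 133, 157 and 157 CPM in CKO. The groups did not overlap (difference 0.53, SE 0.18, limma adjusted p = 0.112). Eif2b3, for the gamma subunit, measured 47.1, 52.5 and 34.6 CPM in WT and 65.3, 78.0 and 58.1 CPM in CKO, again without overlap (0.58, SE 0.22, limma adjusted p = 0.161). The other three overlapped, with differences of 0.03 for Eif2b2, -0.12 for Eif2b4 and -0.18 for Eif2b5. Eif2b5, for the catalytic epsilon subunit, had only 5 to 26 reads a library.

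eIF3 is the largest initiation factor and holds the small subunit and the mRNA together. Of its 14 genes limma called 0, and edgeR and DESeq2 called 0 of the 12 they tested. Their shares over all genes were 5.78%, 9.57% and 7.69%. In 2 genes (14.3%) every CKO library lay above every WT library, beside 14.5% of all genes tested. In 1 (7.14%) every CKO library lay below, beside 13.2%, and 11 overlapped. Eif3l was the only one with an unadjusted p under 0.05 by limma (7.14%, beside 21.3% of all genes tested). It measured 184, 214 and 216 CPM in WT and 278, 305 and 303 CPM in CKO, a difference of 0.53 (SE 0.15, limma adjusted p = 0.0674), with every CKO library above. Eif3m measured 305 to 331 CPM in WT and 379 to 405 CPM in CKO, and Eif3h 277 to 353 CPM in WT and 238 to 271 CPM in CKO, neither with overlap and neither called (0.28, SE 0.14, and -0.31, SE 0.15). Of the longest transcript of Eif3m 87.7% is shared with a copy at 98% identity, and its count is uncertain. Eif3k, the highest per kilobase over all libraries, measured 582, 557 and 559 CPM in WT and 516, 529 and 616 CPM in CKO. The groups overlapped, with a difference of -0.04 (SE 0.14). The complex summed to 3083 to 3216 CPM in WT and 3155 to 3456 CPM in CKO.

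Subunits of eIF3 that belong to 1 complex were read at very different levels per kilobase. Eif3k averaged 208 CPM per kilobase of exon and Eif3g 108, against 3.40 for Eif3f and 0.838 for Eif3d. Eif3d, whose product can bind the cap, had 8, 9 and 2 reads in WT and 7, 7 and 1 in CKO. Eif3f had 15, 10 and 10 reads in WT and 11, 22 and 10 in CKO. Neither gene had a copy of at least 90% identity over 300 bp, and the depth allowed no statement about their change. What their low counts reflect was not tested, and the levels of Eif3d, Eif3f and, below, Eif4a1 are those of the deposited table, not a measure of the subunits in the complex. Of the eIF3j pair, Eif3j1 measured 64.5, 46.5 and 52.4 CPM in WT and 66.7, 67.1 and 62.4 CPM in CKO, with overlap. Both are shared in part with copies at 98% identity, 43.8% of Eif3j1 and 100% of Eif3j2. Eif3j2 had 0, 2 and 1 reads in WT and 2, 5 and 0 in CKO, mostly under the floor.

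**Figure D4:**
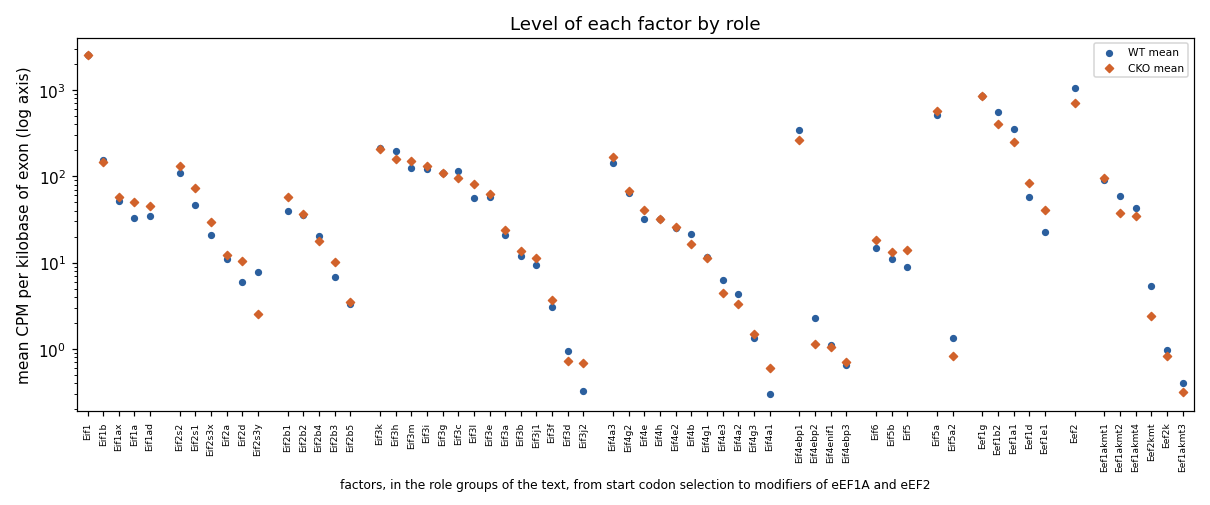
Mean level of each of the 62 factors in CPM per kilobase of exon (vertical log axis), ordered within each role, for WT (blue circles) and CKO (orange diamonds), 3 libraries each. Eif1 stands highest, near 2530 CPM per kilobase in both genotypes, and subunits of the same complex, as counted in the table, differ by more than 100-fold, as Eif3k and Eif3d do.

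eIF4F joins the cap-binding protein eIF4E, the scaffold eIF4G and the helicase eIF4A. Of its 11 genes and cofactors limma called 0, and edgeR and DESeq2 called 0 of the 10 they tested. Their shares over all genes were 5.78%, 9.57% and 7.69%. By limma 0 reached an unadjusted p under 0.05, beside 21.3% of all genes tested. Eif4e measured 171, 197 and 206 CPM in WT and 219, 281 and 234 CPM in CKO. The groups did not overlap (0.35, SE 0.16, limma adjusted p = 0.253). Its paralog Eif4e2, a cap-binding repressor, measured 165, 164 and 231 CPM in WT and 186, 191 and 198 CPM in CKO, and Eif4e3 measured 21.02, 14.26 and 11.83 CPM and 9.63, 9.38 and 14.7 CPM, both with overlap. Of the helicases, Eif4a3, a core of the exon junction complex, was the highest of the group per kilobase. It measured 260, 276 and 360 CPM in WT and 357, 368 and 323 CPM in CKO. Eif4a2 measured 21.7, 25.5 and 22.0 CPM in WT and 26.13, 18.04 and 8.67 CPM in CKO. Eif4a1 was near the floor, with 0, 3 and 2 reads in WT and 4, 7 and 0 in CKO. It has 3 copies elsewhere in the genome, with 68.7% of its longest transcript shared at 98% identity, and its count is uncertain.

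The scaffolds overlapped between the genotypes. Eif4g1 measured 74.7, 81.8 and 100.5 CPM in WT and 79.1, 103 and 65.0 CPM in CKO. Eif4g2, which cannot bind eIF4E, measured 613, 685 and 644 CPM in WT and 700, 636 and 708 CPM in CKO. Eif4g3 had 16, 23 and 18 reads in WT and 17, 30 and 18 in CKO. The RNA-binding cofactor Eif4b measured 91.3 to 101.3 CPM in WT and 67.6 to 86.6 CPM in CKO, without overlap and not called (-0.36, SE 0.18), and Eif4h differed by less than 0.01 (SE 0.17).

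The 3 tested inhibitors of eIF4E had negative differences, as had 5975 of all 12155 genes tested. None was called, beside 5.78% of all genes tested. Eif4ebp1, which holds eIF4E back when mTORC1 is inactive, was the highest of them per kilobase. It measured 889, 696 and 647 CPM in WT and 604, 538 and 569 CPM in CKO. The groups did not overlap (-0.37, SE 0.16, limma adjusted p = 0.208). Eif4ebp2 had 14, 22 and 15 reads in WT and 6, 17 and 4 in CKO. CKO 2 lay within the WT range, and the difference was -1.04 (SE 0.45, limma adjusted p = 0.212). Without CKO 2 it was -1.53 and called (limma adjusted p = 0.0273). Eif4ebp3 had 1, 1 and 0 reads in WT and 0, 1 and 1 in CKO. Eif4enif1, which shuttles eIF4E to the nucleus, had 2 to 13 reads a library. It differed by -0.28 (SE 0.53), and by 0.36 without CKO 3.

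Of the factors that select the start codon, Eif1 was the highest of all 62 per kilobase. It measured 5978, 5649 and 4300 CPM in WT and 5555, 5034 and 5396 CPM in CKO, with overlap, and its 20 copies make the count uncertain. Its paralog Eif1b measured 204, 145 and 177 CPM in WT and 160, 192 and 146 CPM in CKO, with overlap. Eif1a measured 129, 165 and 121 CPM in WT and 202, 199 and 224 CPM in CKO. Every CKO library lay above (0.60, SE 0.17, limma adjusted p = 0.0704). Eif1a has 12 copies. Its X-linked paralog Eif1ax, with 304, 283 and 226 CPM in WT and 266, 349 and 295 CPM in CKO, overlapped. Eif1ad, a protein with an eIF1A domain, measured 89.3 to 108 CPM in WT and 109 to 146 CPM in CKO, without overlap and not called (0.36, SE 0.18).

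Subunit joining and eIF5A showed no called change, beside 5.78% of all genes tested. Eif5b measured 116, 112 and 93.8 CPM in WT and 132, 121 and 138 CPM in CKO, without overlap (0.28, SE 0.17). Eif6, which keeps the subunits apart and was the highest of the joining group per kilobase, measured 37.0, 35.3 and 46.5 CPM in WT and 45.4, 46.9 and 56.3 CPM in CKO, with overlap. Eif5a measured 1268, 1063 and 1267 CPM in WT and 1187, 1669 and 1163 CPM in CKO, where CKO 2 stood apart. Eif5a2 had 14, 11 and 2 reads in WT and 8, 6 and 3 in CKO.

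Eif5, the GTPase activator of eIF2, varied more between libraries than between genotypes. It measured 42.0, 41.3 and 97.99 CPM in WT and 17.9, 247 and 22.5 CPM in CKO. CKO 2 and WT 3 stood above the other libraries of their genotype, and the mean CPM was higher in CKO while the log2 fold change was -0.24 (SE 0.80). Without CKO 2 the difference was -1.42 and was called (limma adjusted p = 0.0275). Eif3b, for a core subunit of eIF3, was also highest in CKO 2 and next in WT 3, with 21.7, 25.5 and 71.8 CPM in WT and 17.2, 104 and 16.5 CPM in CKO. Eif2b5 stood at 18.8 CPM in CKO 2 and at 4.13 and 4.33 CPM in the other CKO libraries. In all, 4 of the 60 tested factors in CKO 2 and 3 in WT 3 stood more than 1 on the log2 scale above the other libraries of their genotype, 2 of them in both. Over all genes tested 176 did so in both. These genes were chosen for this pattern after their values were seen, and it carries no test. CKO 2 had no reads of Ddx3y, Uty or Kdm5d, while WT 3 had them. The muscle markers summed to 71.0, 46.5 and 205 CPM in WT and 111, 264 and 108 CPM in CKO. They were thus highest in WT 3 and CKO 2, but Myog alone made up 179 of the 264 CPM in CKO 2. The part of sex or of muscle in this pattern was not tested.

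**Figure D5:**
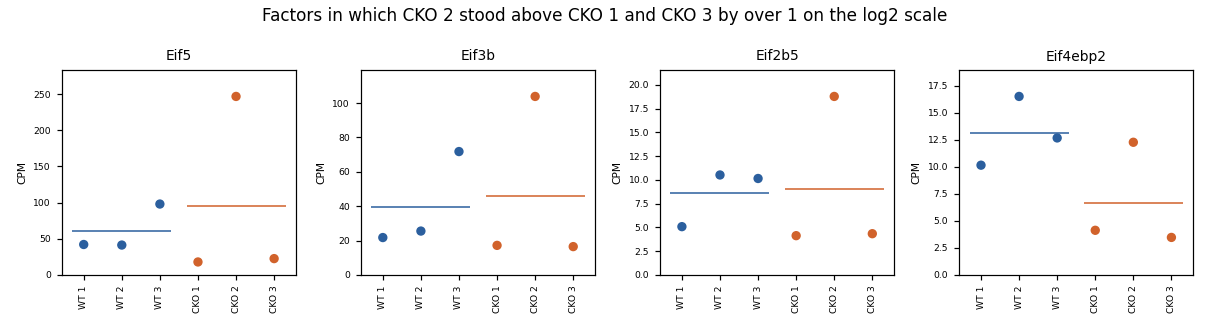
CPM by library (vertical axes from 0) of the 4 factors in which CKO 2 stood above CKO 1 and CKO 3 by over 1 on the log2 scale, with lines at the WT (blue) and CKO (orange) means. In Eif5 and Eif3b WT 3 also stands above the other WT libraries, with 97.99 and 71.8 CPM.

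The calls depended on single libraries. Without CKO 2 the fit called 9 factors, 5 higher and 4 lower, and 10.8% of all genes. These were Eef1e1, Eif2s1, Eif3l, Eef1d and Eif1a, higher, and Eef2, Eef1b2, Eif4ebp2 and Eif5, lower. Without WT 3 it called 4, with Eef1a1 added to the 3, and 4.48% of all genes. Without WT 1, WT 2, CKO 1 or CKO 3 limma called 0 factors and 1.75% to 2.12% of all genes, while 10 to 14 factors had an unadjusted p under 0.05. The direction of Eef1e1, Eif2s1 and Eef2 was the same in each of these fits.

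The genes around the factors were described from lists compiled by hand, with earlier results of these data known. Of the 6 genes for eIF2 kinases and phosphatase subunits limma called 0, and edgeR and DESeq2 called 0 of the 4 they tested. Their shares over all genes were 5.78%, 9.57% and 7.69%. By limma 0 of the 6 had an unadjusted p under 0.05, beside 21.3% of all genes tested. Of 19 regulators of mTORC1 and of cap binding, 2 were lower (10.5%), beside 2.6% of all genes tested, and 0 higher, and the median difference was 0.07. Mknk1, a kinase of eIF4E, measured 133, 126 and 114 CPM in WT and 55.0, 52.7 and 47.7 CPM in CKO, without overlap (-1.25, SE 0.17, limma adjusted p = 0.00379). Deptor, an inhibitor of mTOR, measured 17.4, 16.5 and 21.1 CPM in WT and 7.57, 6.50 and 8.67 CPM in CKO (-1.17, SE 0.29, limma adjusted p = 0.0444), and DESeq2, the fit without a filter and the fits without any 1 library other than CKO 2 did not call it. A list for poly(A) binding, termination and recycling also held genes of other roles, among them Dhps, Dohh, Eefsec, Ddx3x, Dhx29 and Tpt1. Of its 20 genes 1 was called (5%), beside 5.78% of all genes tested, and the median difference was 0.19. Of these 20, 6 (30%) reached an unadjusted p under 0.05, 4 higher and 2 lower, beside 21.3% of all genes tested. The gene called was Tpt1, a regulator of growth, with 7433, 6043 and 5458 CPM in WT and 2935, 4171 and 2764 CPM in CKO (-0.95, SE 0.19, limma adjusted p = 0.0190). This call was lost without WT 1, WT 2, CKO 1 or CKO 3. Mcts1, which acts in reinitiation and ribosome recycling, measured 110, 95.3 and 108 CPM in WT and 191, 136 and 223 CPM in CKO, without overlap. Its difference of 0.78 (SE 0.20) missed the threshold (limma adjusted p = 0.0502), and edgeR, DESeq2, the fit without a filter, the filter at 5 CPM and the fit without CKO 2 called it. Mcts1 was named after its values were seen. Of 9 tested mitochondrial translation factors limma called 0, and edgeR and DESeq2 called 0 of 8, beside the same shares over all genes of 5.78%, 9.57% and 7.69%. By limma 2 (22.2%) had an unadjusted p under 0.05, beside 21.3% of all genes tested.

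ATF4 is a transcription factor whose own translation rises when eIF2α is phosphorylated. Of 20 of its known targets and partners, itself included, 8 (40%) were called lower and 0 higher, beside the 2.6% of all genes called lower. The median log2 fold change was -0.55. The list was chosen with earlier results of these data known, so that this share is no further support. The count lower was 8 with edgeR and DESeq2, and 6 with the replicate number as a block. It was 9 without CKO 2, 3 without WT 1 or WT 2, 5 without CKO 1, and 6 without WT 3 or CKO 3. The 8 were Pycr1 and Aldh18a1 of proline synthesis, Mthfd2 of folate metabolism, Trib3, Chac1, Nupr1, Fgf21 and Atf5. Of the 20, 16 had negative and 4 positive differences. The 4 were Psat1 (0.38), Atf3 (0.36), Slc7a11 (0.35) and Cebpg (0.03), and none was called. Asns (-0.24) and Ddit3 (-0.13) were not called either. Pycr1 measured 245, 245 and 295 CPM in WT and 37.8, 44.0 and 36.4 CPM in CKO, without overlap (-2.70, SE 0.17, limma adjusted p = 6.74e-05). Trib3 measured 351, 352 and 203 CPM in WT and 90.1, 97.4 and 100.5 CPM in CKO (-1.60, SE 0.22, limma adjusted p = 0.00373). Both were called in each of the 6 fits without 1 library. Atf4 mRNA itself measured 606, 648 and 622 CPM in WT and 512, 649 and 510 CPM in CKO, with overlap (-0.17, SE 0.15). Phosphorylation and translation were not measured, and the part of chondrocyte share in these values was not tested.

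Beside the factors, 5 of 79 genes of cytosolic ribosomal proteins were called (6.33%, beside 5.78% of all genes tested), 1 higher and 4 lower, and their median difference was -0.21 on the log2 scale. Among cytosolic aminoacyl-tRNA synthetases 2 of 20 were called (10%, beside the same 5.78%), 1 in each direction, with a median of -0.02. The factors, with 5% called and a median of 0.043, were not tested against either group.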

How the data were processed

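Poly(A) RNA libraries made with a stranded kit, 3 labelled WT and 3 labelled CKO, were read from the table of CPM that the authors deposited, a value per gene and library. The submitters' processing notes name cutadapt 2.5, HISAT2 and featureCounts 1.6.3. The genome build and annotation are not given in the sources used here. In each library 100% of the values were whole multiples of the CPM of 1 read, to within 5.53e-06 reads, and reads were recovered from them. The members and lists were chosen with earlier results of these data known. In 12155 genes that reached a mean of 1 CPM, log2(CPM + 1) was fitted on genotype with limma 3.58.1 (R 4.3.3), trend included, and p-values were adjusted over all of them by Benjamini-Hochberg. Counts were tested as alternatives with edgeR 4.0.16 and DESeq2 1.42.0. Positions and exon lengths came from GENCODE M21 on GRCm38, matched by identifier for all 62 members. Copies were sought with BLAST 2.17.0, and promoters came from RefSeq. Values in every library were given for factors with a p under 0.05, adjusted or not, for the highest per kilobase in each role and for paralog sets. Others were named for low counts or for library patterns after their values were seen. The floor of 3 reads covers counting error only.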

Additional observations from a re-analysis of the deposited data

How the results depend on the processing

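The 60 tested factors and 14 other named genes were refitted in 13 alternatives. None of the 15 factors with an unadjusted p under 0.05 turned sign, and of the 60 tested 21 did so in some alternative, none of them called there in the opposite direction. The number of factors called higher, 2, was the same with a pseudocount of 0.1, without a filter, with a filter at 5 CPM, with TMM factors, edgeR and DESeq2. The count was 0 to 5 without 1 library. The 1 factor called lower became 0 without a filter, 2 with the filter at 5 CPM and 2 with edgeR, and 0 to 4 without 1 library. The median log2 fold change of the factors, 0.043, was -0.00197 with TMM factors and -0.0105 to 0.13 without 1 library. The cause was not tested, except that fits without 1 library hold fewer samples. Same-numbered libraries deviated with correlations of 0.0378, -0.131 and -0.103, which show no pairing by number but cannot exclude it. With the replicate number as a block, limma called 0 factors higher and 0 lower, with 15 at an unadjusted p under 0.05, and 385 of all genes in place of 703. edgeR called 737 of 7704 genes and DESeq2 649 of 8440.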
